A study of Mus musculus with 6 samples.

Results

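Heterogeneous nuclear ribonucleoproteins (hnRNPs) were followed at the mRNA level in sorted double positive (DP) thymocytes with and without NSrp70, through the 10 genes *Hnrnpa1*, *Hnrnpa2b1*, *Hnrnpa3*, *Hnrnpc*, *Hnrnpd*, *Hnrnpf*, *Hnrnph1*, *Hnrnpk*, *Hnrnpl* and *Hnrnpu*. They were taken by symbol from the 23183 gene symbols listed for every library, and all 10 were found in all 6 libraries. DP thymocytes are immature T cells that carry CD4 and CD8 together, and NSrp70 is a splicing regulator of nuclear speckles encoded by *Nsrp1*. The WT group was 3 libraries from *Nsrp1* f/f mice and the cKO group 3 libraries from *Nsrp1* f/f CD4Cre mice, so that both groups carried the floxed alleles and the cKO group also the Cre transgene. All mice were C57BL/6 at 6 weeks of age, and the CD4Cre transgene, which is driven by regulatory sequences of *Cd4*, deletes in thymocytes from around the DP stage onward. Nothing in the labels says whether a library came from 1 mouse or from pooled mice, and p-values measure the spread between these libraries.

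hnRNPs coat nascent transcripts and guide the choice of splice sites, and many of them oppose SR proteins, the other large family of splicing regulators, at the same exons. The families differ in the RNA they prefer: the A/B proteins bind UAG-containing motifs, hnRNP C uridine tracts, hnRNP D (AUF1) AU-rich elements, hnRNP F and H guanine tracts, hnRNP K cytosine tracts and hnRNP L CA repeats, whereas hnRNP U is a scaffold protein that also binds chromatin. In T cells hnRNP L and its relative hnRNP LL are known for silencing the variable exons of *Ptprc*, which encodes CD45.

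Expression was given as FPKM, that is fragments counted per kilobase of transcript and corrected for library depth, which the authors computed with Cufflinks on mm10. The FPKM scale already divides by transcript length, so that levels can be set side by side between genes. *Nsrp1*, listed under its older symbol *Ccdc55*, was at 20.2, 20.7 and 21.1 FPKM in WT and at 17.7, 15.8 and 15.0 FPKM in cKO, a log2 fold change of -0.34 (SE 0.077, limma adjusted p = 0.00675), in which the exons removed by Cre cannot be separated from the rest of the gene. DP markers were at high levels in both groups (summed FPKM of 8 markers, 5416 to 5495 in WT and 7164 to 9390 in cKO), while B cell markers other than *Cd79b* and myeloid markers were low. The 4 markers of thymic epithelium summed to 3.56 to 3.89 FPKM in WT and 1.92 to 3.64 FPKM in cKO, nearly all of it *Epcam*, with *Foxn1* and *Krt5* at 0. The summed FPKM of 5 genes of cycling cells was 435 to 444 in WT and 892 to 1066 in cKO, and all 5 were called higher. For markers of mature single positive cells, the sums were 112 to 115 and 98.1 to 120, with 4 of 5 called lower. Hemoglobin and other erythroid genes summed to 1.85 to 2.66 and 12.1 to 26.1. The part of these shifts in the hnRNP values was not tested. *Xist* (69.8 to 72.0 FPKM in WT, 4.07 to 5.44 in cKO) and 4 genes of chromosome Y (0 in WT, 5.83 to 43.8 in cKO) separated the groups, so that sex and genotype cannot be told apart. The libraries held an estimated 20.7 to 20.8 M (mega) fragments in WT and 13.1, 20.5 and 17.3 M in cKO 1, 2 and 3. Relative to counting noise, the spread between 2 WT libraries was 1.49 to 1.58 and that between 2 cKO libraries 31.2 to 64.5, and each limma test was therefore repeated with the WT libraries averaged into 1 sample. In that repeat the adjusted p of *Nsrp1* was not under 0.05.

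The first comparison asked which hnRNP mRNAs differed between cKO and WT. Of the 10 genes, 4 were called higher in cKO (*Hnrnpa2b1*, *Hnrnpa3*, *Hnrnpc* and *Hnrnpf*), 2 were called lower (*Hnrnpd* and *Hnrnpl*) and 4 were not called (*Hnrnpa1*, *Hnrnph1*, *Hnrnpk* and *Hnrnpu*). A call is an adjusted p under 0.05 in limma on log2(FPKM + 1) over the 10326 genes at 1 FPKM or more in at least 3 libraries, a filter that all 10 passed. In the same test 65.5% of all genes were called, 35.8% higher and 29.8% lower, so the share of hnRNP genes called was near that of all genes. In bulk samples such as these, fewer cells of a type and less RNA per cell cannot be told apart. The median log2 fold change was 0.07 over the 10 genes and 0.04 over all genes. With the WT libraries as 1 sample, limma called 0 of the 10 genes and 15.9% of all genes (7.16% higher and 8.74% lower), and 3 of the 10 (*Hnrnpa3*, *Hnrnpc* and *Hnrnpd*) had an unadjusted p under 0.05.

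The calls of higher expression also depended on how libraries were scaled. Total FPKM per library was 521296 to 531517 in WT and 701396 to 850548 in cKO, although the size factors, which follow the median gene, were 1.00 to 1.01 in all 6 libraries. Scaling to the same FPKM total moved the median log2 fold change of all genes from 0.04 to -0.45 and called 68.6% of genes, 8.74% higher and 59.9% lower. Quantile normalization called 63.2%, 33.3% higher and 29.9% lower. Under that scaling and under quantile normalization, limma called 0 of the 10 hnRNP genes higher (also 0 at an unadjusted p under 0.05) and the same 4 lower, *Hnrnpd*, *Hnrnph1*, *Hnrnpl* and *Hnrnpu*. *Hnrnpd* and *Hnrnpl* were the 2 genes called lower under the size factors as well as under both of these scalings. Over 10237 genes, the log2 fold change under the size factors fell with transcript length (Spearman rho -0.29) and with GC content (rho -0.34). After a correction of each library for transcript length and GC content, limma called 3 of the 10 higher (*Hnrnpa3*, *Hnrnpc* and *Hnrnpf*) and 2 lower (*Hnrnpd* and *Hnrnph1*). In that fit 57.1% of all genes were called, 31.9% higher and 25.2% lower.

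**Figure D1:**
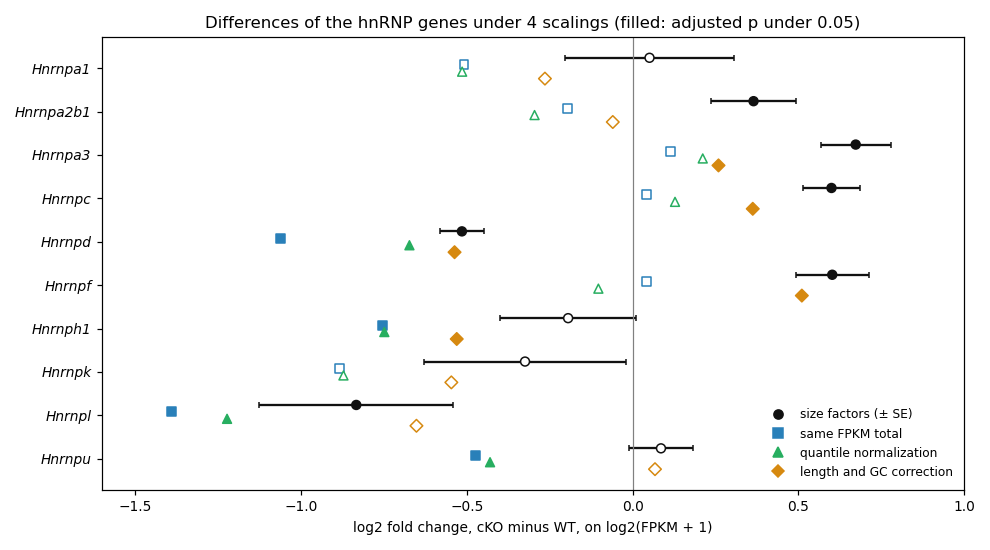
The log2 fold change of each hnRNP gene (cKO minus WT, on log2(FPKM + 1)) is plotted under 4 scalings, with the SE for the size factors and filled symbols for an adjusted p under 0.05. *Hnrnpd* was below 0 and filled under all 4, whereas *Hnrnpa2b1* lay at 0.36 under the size factors and below 0 under the other scalings.

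The A/B family contains abundant proteins that repress exons and shuttle between nucleus and cytoplasm. *Hnrnpa1* (chr15:103240432-103246692, plus strand, GRCm38) encodes the best known splicing silencer of the family. It was at 288, 289 and 285 FPKM in WT and at 190, 400 and 349 FPKM in cKO. The cKO libraries lay on both sides of the WT libraries, and the log2 fold change was 0.05 (SE 0.25, adjusted p = 0.869), which turned to -0.51 with the same FPKM total or with quantile normalization and to -0.26 after the length and GC correction. *Hnrnpa2b1* (chr6:51460932-51469894, minus strand), whose protein also carries RNAs along microtubules, was at 580, 586 and 577 FPKM in WT and at 645, 886 and 734 FPKM in cKO. All cKO values were above all WT values, with a log2 fold change of 0.36 (SE 0.13, adjusted p = 0.0381), but the sign turned to -0.20 with the same FPKM total, to -0.30 with quantile normalization and to -0.06 after the length and GC correction. Leaving out any WT library or cKO 3, blocking on the replicate number or dropping the expression filter also raised its adjusted p above 0.05, to between 0.0625 and 0.114.

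*Hnrnpa3* (chr2:75659261-75669407, plus strand), by its own symbol the lowest of these A/B genes, was at 135, 137 and 132 FPKM in WT and at 184, 229 and 237 FPKM in cKO. All cKO libraries were above the WT libraries, 1.61-fold on the means, and the log2 fold change was 0.67 (SE 0.11, adjusted p = 0.00144). The log2 fold change kept its sign but was 0.11 (adjusted p = 0.420) with the same FPKM total, 0.21 (adjusted p = 0.137) with quantile normalization and 0.26 (adjusted p = 0.0248) after the length and GC correction.

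Both *Hnrnpa1* and *Hnrnpa3* share sequence with intronless gene copies that were listed in the files under symbols of their own, and short reads cannot always be assigned between a gene and such a copy. *Gm10052* (chr9:123689233-123690192, minus strand), a processed pseudogene, was identical to *Hnrnpa1* mRNA over 752 aligned nucleotides, and *Gm6793* (chr8:112013433-112015036, minus strand), annotated as protein coding in GENCODE and as a transcribed pseudogene in RefSeq, was 98.3% identical to *Hnrnpa3* mRNA over 1446 nucleotides. A 60-nucleotide window across 6 of the 10 splice junctions of each gene stands unbroken in the copy, and the other 4 windows are not found whole there. The paired reads of the study were longer than this window, so bases beyond it may still separate the gene from the copy. An example of each is shown, with the upstream exon in lower case and the downstream exon in capitals. The first joins exon 5 (last base 103242298) to exon 6 (first base 103242380) of *Hnrnpa1* on chromosome 15 and is found whole in *Gm10052* at chr9:123689580-123689639, and the second joins exon 4 (last base 75662106) to exon 5 (first base 75662487) of *Hnrnpa3* on chromosome 2 and is found whole in *Gm6793* at chr8:112014492-112014551.
Hnrnpa1 exons 5 and 6: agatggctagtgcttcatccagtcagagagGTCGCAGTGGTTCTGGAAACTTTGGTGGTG
Hnrnpa3 exons 4 and 5: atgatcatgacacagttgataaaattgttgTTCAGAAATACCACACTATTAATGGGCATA

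The copies were listed at high levels. *Gm10052* was at 317, 324 and 333 FPKM in WT and at 583, 661 and 737 FPKM in cKO, so that it exceeded *Hnrnpa1* itself in every library. *Gm6793* was at 802, 804 and 833 FPKM in WT and at 1176, 1338 and 1690 FPKM in cKO, far above *Hnrnpa3*. The other copies of *Hnrnpa1* that were listed, *Gm5643* and *Gm5803*, stayed under 1 FPKM. Each sum with copies adds FPKM as they stand, without regard to length. *Gm10052* has 960 nucleotides and the *Hnrnpa1* transcript 1918, so such a sum weights the copy above its fragments. Whether the result for *Hnrnpa1* holds with length taken into account was not tested. Summed with its copies, *Hnrnpa1* was at 606, 614 and 618 FPKM in WT and at 772, 1062 and 1086 FPKM in cKO. The sum was called higher with a log2 fold change of 0.65 (SE 0.15, adjusted p = 0.00647). The wide spread of *Hnrnpa1* over the cKO libraries was smaller in the sum, where all cKO values were above all WT values. *Hnrnpa3* with *Gm6793* was at 937, 941 and 965 FPKM in WT and at 1359, 1567 and 1927 FPKM in cKO (log2 fold change 0.75, SE 0.15, adjusted p = 0.00359). With the sums in place of the single symbols, 7 of the 10 hnRNP genes were called, 5 of them higher, where 65.5% of all genes were called and 35.8% called higher. Neither sum passed the test with the WT libraries as 1 sample (adjusted p = 0.180 and 0.159), with the same FPKM total (adjusted p = 0.616 and 0.171) or with quantile normalization (adjusted p = 0.685 and 0.525). How the fragments were divided between each gene and its copy is not stated, so the single values of *Hnrnpa1* and *Hnrnpa3* are uncertain.

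**Figure D2:**
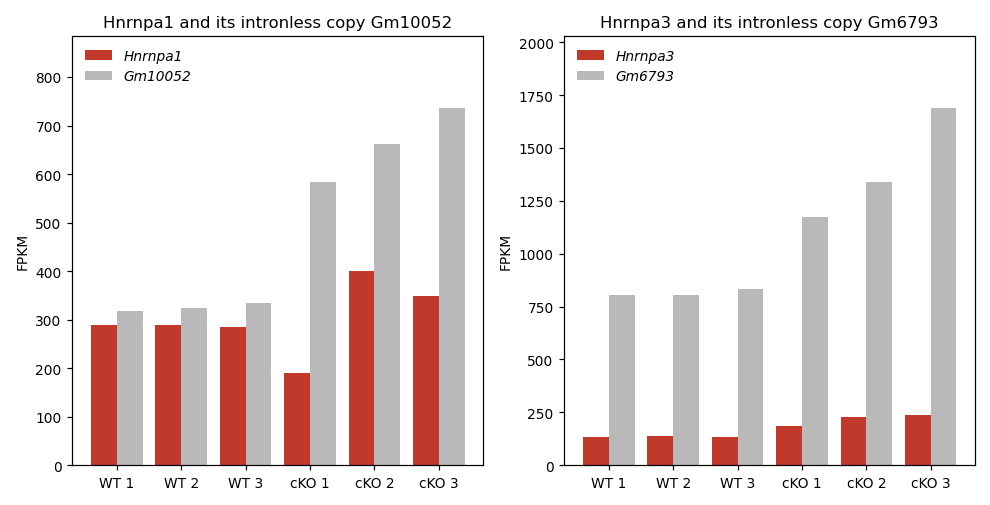
FPKM (bars, from 0) of *Hnrnpa1* beside *Gm10052* and of *Hnrnpa3* beside *Gm6793* in each of the 6 libraries. *Gm10052* was at 583 FPKM or more in all 3 cKO libraries, whereas *Hnrnpa1* was at 190 FPKM in cKO 1 and at 400 FPKM in cKO 2.

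hnRNP C, a nuclear protein that packages long transcripts and masks cryptic exons, and hnRNP D, a regulator of the decay of AU-rich mRNAs, moved in opposite directions on the size-factor scale. *Hnrnpc* (chr14:52073377-52104028, minus strand) was at 194, 191 and 194 FPKM in WT and at 280, 279 and 322 FPKM in cKO. The cKO libraries were all higher, 1.52-fold on the means, with a log2 fold change of 0.60 (SE 0.085, adjusted p = 0.000945) that was 0.04 (adjusted p = 0.628) with the same FPKM total. *Hnrnpd* (chr5:99955935-99978938, minus strand) was at 51.2, 50.0 and 50.8 FPKM in WT and at 33.5, 34.6 and 37.5 FPKM in cKO. It was the lowest of the 10 genes in every library, all cKO libraries were lower than all WT libraries, and its cKO coefficient of variation of 5.85% was the smallest of the 10. Its log2 fold change was -0.51 (SE 0.066, adjusted p = 0.000652). The fall of *Hnrnpd* had a limma adjusted p under 0.05 in every alternative fit except that with WT as 1 sample (adjusted p = 0.0723), with log2 fold changes of -1.06 with the same FPKM total, -0.67 with quantile normalization and -0.54 after the length and GC correction.

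hnRNP F and hnRNP H1 are close relatives that bind the same guanine tracts. *Hnrnpf* (chr6:117900324-117925622, plus strand) had the highest level of the 10 symbols in every library, at 630, 624 and 617 FPKM in WT and at 865, 923 and 1067 FPKM in cKO. Its cKO values were all above the WT values, 1.53-fold on the means, and its log2 fold change was 0.60 (SE 0.11, adjusted p = 0.00271), against 0.04 (adjusted p = 0.689) with the same FPKM total and -0.10 (adjusted p = 0.179) with quantile normalization. *Hnrnph1* (chr11:50376990-50386528, plus strand) was at 370, 367 and 364 FPKM in WT and at 241, 448 and 305 FPKM in cKO. Of the cKO libraries, cKO 2 was above and cKO 1 and cKO 3 were below the WT range, and the log2 fold change was -0.19 (SE 0.20, adjusted p = 0.429). Without cKO 2 it was -0.43 (adjusted p = 0.00780), and without cKO 1 it was 0.01 (adjusted p = 0.949). The sign was negative and the adjusted p under 0.05 with the same FPKM total (-0.75), quantile normalization (-0.75) and the length and GC correction (-0.53).

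*Hnrnpk* (chr13:58391142-58403343, minus strand) encodes a KH-domain protein with roles in splicing, translation and transcription. It was at 369, 362 and 355 FPKM in WT and at 224, 504 and 215 FPKM in cKO, so that cKO 2 lay above all WT libraries and the other cKO libraries below them. The cKO coefficient of variation was 52.4%, against 1.90% in WT, and the log2 fold change of -0.32 (SE 0.31, adjusted p = 0.377) became -0.71 (adjusted p = 4.43e-05) without cKO 2. An exon of *Rmi1*, on the opposite strand, overlaps *Hnrnpk*, but *Rmi1* was at 14.3 to 18.6 FPKM over the 6 libraries.

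*Hnrnpl* (chr7:28808541-28822266, plus strand), whose product represses exons through CA repeats, was at 183, 188 and 181 FPKM in WT and at 88.6, 173 and 70.9 FPKM in cKO. All cKO values were below the WT values, but cKO 2 only narrowly, and the log2 fold change was -0.83 (SE 0.29, adjusted p = 0.0390). The size of the fall rested on cKO 1 and cKO 3: it was -1.20 (adjusted p = 8.46e-05) without cKO 2, -0.72 (adjusted p = 0.117) without cKO 1 and -0.57 (adjusted p = 0.124) without cKO 3. Leaving out any WT library also lost the call (adjusted p = 0.0844 to 0.0917), as did the length and GC correction (-0.65, adjusted p = 0.0937) and the fit with no expression filter (adjusted p = 0.0801). With a GC content of 54.2%, the *Hnrnpl* transcript used for that correction stood above the other 9 genes, at 40.9% to 49.0%. *Hnrnpl* fell further with the same FPKM total (-1.39, adjusted p = 0.00804) and with quantile normalization (-1.22, adjusted p = 0.0122).

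*Hnrnpu* (chr1:178321108-178337797, minus strand) was at 252, 249 and 255 FPKM in WT and at 236, 294 and 276 FPKM in cKO. The groups overlapped and the log2 fold change was 0.09 (SE 0.096, adjusted p = 0.456), while with the same FPKM total it was -0.47 (adjusted p = 0.0101) and with quantile normalization -0.43 (adjusted p = 0.0128). *Cox20*, whose exons overlap those of *Hnrnpu* on the opposite strand, was at 118 to 140 FPKM in WT and at 182 to 255 FPKM in cKO, and whether fragments were counted by strand is not stated. In all, the cKO and WT values of 6 of the 10 genes did not overlap, 4 above and 2 below, where 72.5% of all tested genes did not overlap, 39.2% above and 33.3% below.

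**Figure D3:**
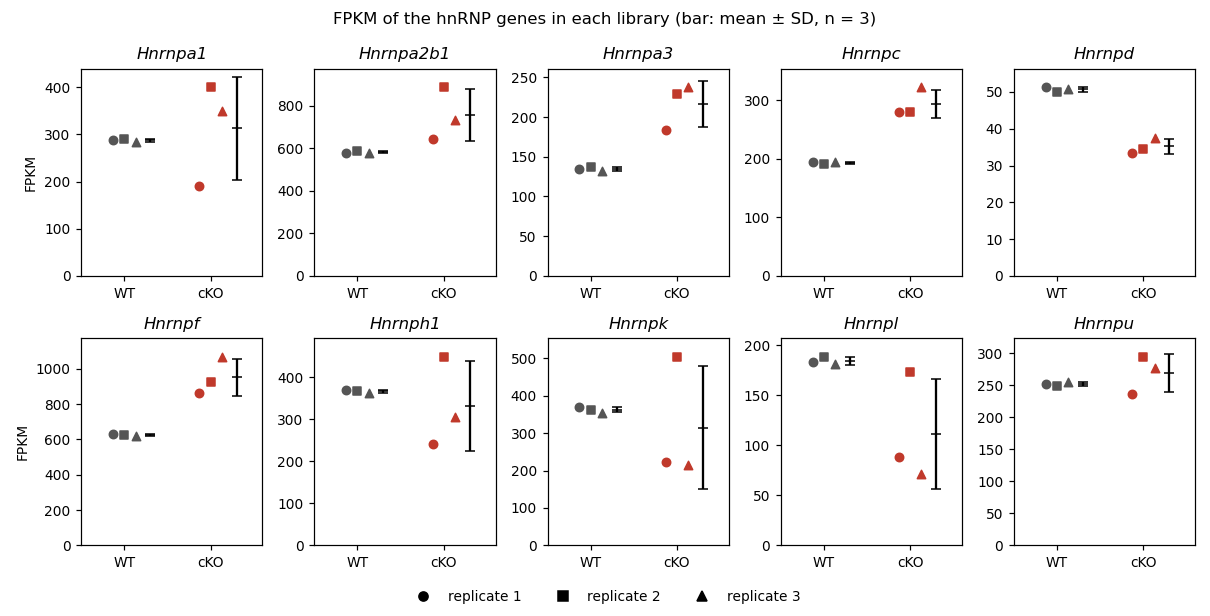
FPKM of each hnRNP gene in the 3 WT (grey) and 3 cKO (red) libraries, on axes that start at 0, with symbols for replicates 1 to 3 and bars for the mean ± SD. The WT libraries lie close together in every panel, and cKO 2 (square) stands far above cKO 1 and cKO 3 for *Hnrnpk* and *Hnrnpl*.

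By single symbols, without the gene copies, the order of the levels in WT from high to low was *Hnrnpf*, *Hnrnpa2b1*, *Hnrnph1*, *Hnrnpk*, *Hnrnpa1*, *Hnrnpu*, *Hnrnpc*, *Hnrnpl*, *Hnrnpa3* and *Hnrnpd*. Among neighbours in that order, only the ranges of *Hnrnph1* (364 to 370 FPKM) and *Hnrnpk* (355 to 369 FPKM) overlapped. With the copies summed, *Hnrnpa3* (937 to 965 FPKM in WT) would stand first. The plain sum of *Hnrnpa1* (606 to 618 FPKM) gives it no sure place, since *Gm10052* (960 nucleotides) is shorter than the *Hnrnpa1* transcript (1918 nucleotides). Again by single symbols, in cKO the first 5 places by mean FPKM were unchanged, *Hnrnpc* stood above *Hnrnpu* and *Hnrnpa3* above *Hnrnpl*. Most neighbours in the cKO order overlapped, the exceptions being *Hnrnpa2b1* above *Hnrnph1*, *Hnrnpa3* above *Hnrnpl* and *Hnrnpl* above *Hnrnpd*. By mean FPKM over all 23183 symbols, *Hnrnpf* held rank 116 in WT and 131 in cKO. *Hnrnpl* moved from rank 370 to 913 and *Hnrnpd* from rank 1732 to 2703.

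The next comparison set the 10 genes against each other within a library, which does not depend on a scale factor per library. Neither these shares nor the ratios below were corrected for transcript length and GC content. Each share is a gene's percent of the summed FPKM of the 10 genes, a sum that was 3010 to 3052 in WT and 2986, 4172 and 3614 in cKO 1, 2 and 3. As a part of the whole FPKM total, this sum was 0.570% to 0.584% in WT and 0.377%, 0.595% and 0.425% in cKO. *Hnrnpf* took 20.5% ± 0.0771 of the pool in WT and 26.9% ± 4.11 in cKO (SD, n = 3). *Hnrnpl* took 6.07% ± 0.105 and 3.03% ± 1.10, and *Hnrnph1* 12.1% ± 0.0387 and 9.09% ± 1.45. *Hnrnpa2b1*, *Hnrnpa3*, *Hnrnpc* and *Hnrnpf* had a higher share in every cKO library than in any WT library, and *Hnrnpd*, *Hnrnph1*, *Hnrnpl* and *Hnrnpu* a lower share. Shares within a library are tied, so a rise of some lowers the rest, and the FPKM of *Hnrnph1* and *Hnrnpu* overlapped between the groups. By plain FPKM, 72.5% of all tested genes separated the groups. The shares of *Hnrnpk* (5.94% to 12.1% in cKO) and *Hnrnpa1* (6.35% to 9.66% in cKO) overlapped the WT values of 11.8% to 12.1% and 9.45% to 9.51%. The copies of *Hnrnpa1* and *Hnrnpa3* were then added to the pool, again as plain sums of FPKM without regard to length. The share of *Hnrnpa1* was then 14.7% in WT and 17.2% in cKO, and that of *Hnrnpa2b1* 13.9% and 13.4%. Each was a change of sign from the pool without copies. In that pool the groups no longer separated for *Hnrnpa2b1* (13.8% to 14.1% in WT, 12.1% to 14.4% in cKO), *Hnrnpc* (4.57% to 4.65% and 4.52% to 5.90%) or *Hnrnpf* (14.8% to 15.1% and 15.0% to 18.2%), while *Hnrnpk* (8.50% to 8.84% and 3.55% to 8.16%) was lower in every cKO library.

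**Figure D4:**
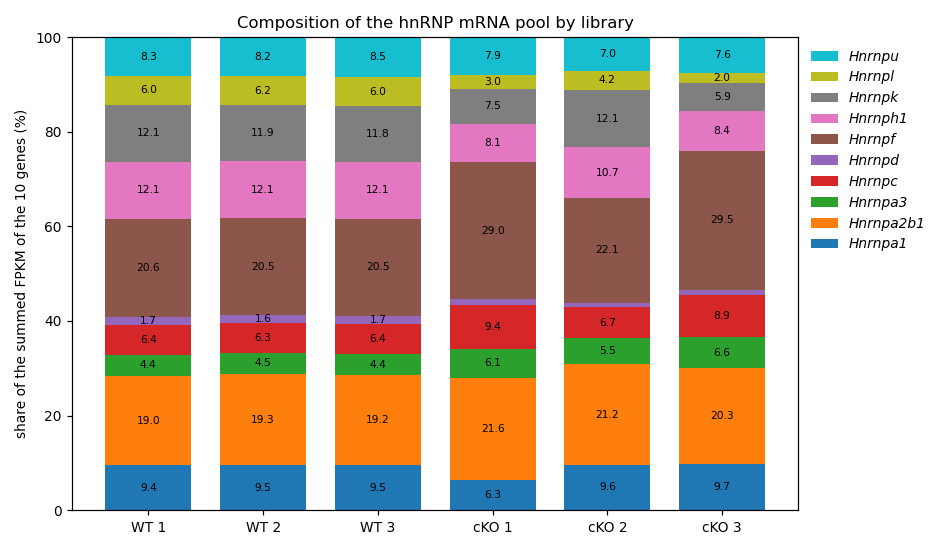
Stacked bars give each gene's percent of the summed FPKM of the 10 hnRNP genes in each library. The segment of *Hnrnpf* is 20.5% to 20.6% in WT and 29.0%, 22.1% and 29.5% in cKO 1, 2 and 3, while that of *Hnrnpl* is 3.0%, 4.2% and 2.0% in cKO.

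Ratios of related genes within a library were compared for 7 pairs by an exact two-sided permutation test, in which 3 against 3 libraries cannot give a p below 0.1. The test takes the 3 WT libraries as separate samples, although they lay close together. With WT as 1 sample the lowest possible p would be higher still. *Hnrnpf* over *Hnrnph1* was 1.70 in each WT library and 3.58, 2.06 and 3.50 in cKO, a log2 difference of 0.80 (SE 0.26, exact p = 0.1). For *Hnrnpl* over *Hnrnpll*, its relative in T cells, the ratio was 4.19, 4.56 and 4.26 in WT and 2.11, 3.69 and 1.56 in cKO (log2 difference -0.91, SE 0.37, exact p = 0.1). *Hnrnpd* over its relative *Hnrnpdl* was 0.531, 0.509 and 0.527 in WT and 0.412, 0.254 and 0.430 in cKO (log2 difference -0.55, SE 0.24, exact p = 0.1, and -0.31 without cKO 2). In each of these pairs the groups were separated, and cKO 2 was nearest to WT in the first and second pair but farthest from WT in the last. *Hnrnpa3* over *Hnrnpa2b1* had a mean of 0.232 in WT and 0.289 in cKO (exact p = 0.1). *Hnrnpa1* over *Hnrnpa2b1* had means of 0.495 and 0.407 (log2 difference -0.31, exact p = 0.1, and -0.10 without cKO 1). With the copies added as plain sums of FPKM, the means were 1.06 and 1.29 and the log2 difference was 0.28. The ratios of *Hnrnpu* to *Hnrnpul1* (exact p = 0.7) and of *Ptbp1* to *Ptbp3* (exact p = 0.9) overlapped between the groups. After the length and GC correction in limma, the log2 fold changes were 0.07 (*Hnrnpu*), 0.30 (*Hnrnpul1*), 0.84 (*Ptbp1*) and 0.48 (*Ptbp3*). Without it they were 0.09, 0.02, 0.52 and 0.56, so the order within both pairs was reversed. In the other pairs the order was kept. Adjusted over the 7 pairs, the smallest p was 0.14.

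The spread among the cKO libraries was itself uneven over the 10 genes. *Hnrnpk* and *Hnrnpl* had cKO coefficients of variation of 52.4% and 49.4%, *Hnrnpa1* and *Hnrnph1* of 35.1% and 32.0%, and the others of 5.85% to 16.1%. In WT the coefficients were 0.845% to 2.05%, and counting error at the lowest of the estimated fragment numbers (2883 or more per gene and library) was at most 1.86%. In each of these 4 genes cKO 2 was the highest of the cKO libraries. Among the single-transcript genes used for the depth estimate, cKO 2 was also the cKO library nearest to WT. Relative to counting noise, its spread from a WT library was 88.4 to 91.8. That of cKO 1 was 159 to 162 and that of cKO 3 was 168 to 170. On the log2(FPKM + 1) scale, cKO 2 exceeded the mean of cKO 1 and cKO 3 by 1.20 in *Hnrnpk*, 1.12 in *Hnrnpl*, 0.72 in *Hnrnph1* and 0.63 in *Hnrnpa1*. Among the 4275 tested genes with a mean of 20 FPKM or more, these distances stood at percentiles 99.6, 99.5, 97.9 and 97.1. For *Hnrnpc*, *Hnrnpd* and *Hnrnpf* the distances were -0.10, -0.03 and -0.06. A distance of 0.5 or more was found in 4 of the 10 genes and in 5.98% of all tested genes, a description with no test since it was noticed in these values. Without cKO 2 the calls numbered 8 of 10, with 4 higher and 4 lower, since *Hnrnph1* and *Hnrnpk* then joined the lower genes, where 74.5% of all genes were called, 40.1% higher and 34.4% lower. In the cKO libraries the estimated depth was 20.5 M fragments in cKO 2 against 13.1 and 17.3 M in cKO 1 and cKO 3, and the part of depth in this pattern was not tested.

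**Figure D5:**
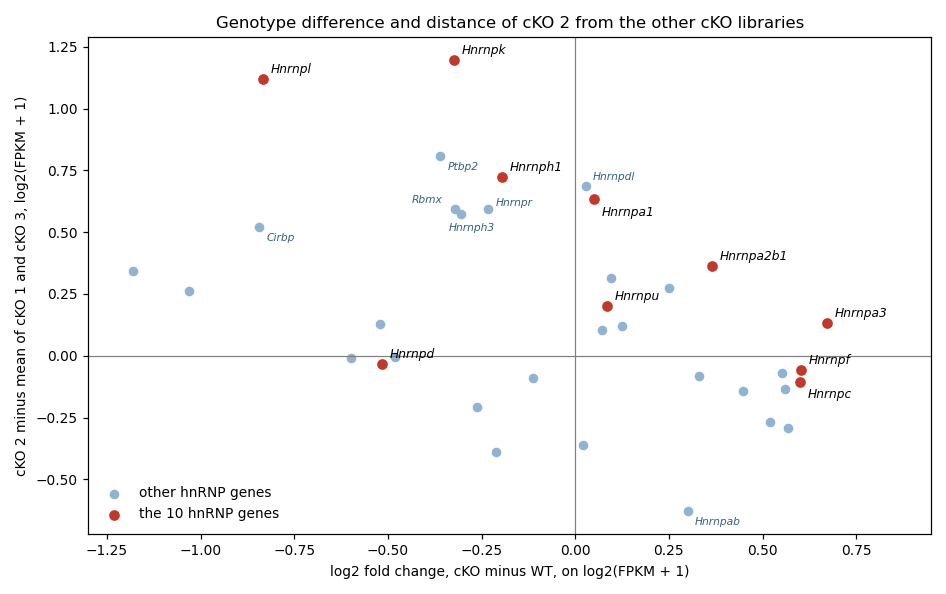
Each point is a gene, placed by its log2 fold change (cKO minus WT, size factors, horizontal) and by the distance of cKO 2 from the mean of cKO 1 and cKO 3 (vertical, both on log2(FPKM + 1)). *Hnrnpk* at 1.20 and *Hnrnpl* at 1.12 stand highest among the points, and *Ptbp2* is at 0.81.

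Of 27 other genes of hnRNP proteins and their close relatives, all tested, 7 were called higher, 8 lower and 12 neither, with a median log2 fold change of -0.11, against 35.8% higher and 29.8% lower among all genes. The higher genes were *Hnrnph2*, *Hnrnpm*, *Syncrip*, *Ptbp1*, *Ptbp3*, *Tardbp* and *Matr3*. With the same FPKM total *Hnrnph2* (-0.11), *Syncrip* (-0.22) and *Tardbp* (-0.30) had a negative log2 fold change. *Ptbp1* (-0.039), *Matr3* (-0.0041), *Hnrnpm* (0.0092) and *Ptbp3* (0.0046) were near 0 there and not called (limma adjusted p = 0.798 to 0.966). With quantile normalization *Ptbp3* (0.29, adjusted p = 0.00259) and *Matr3* (0.20, adjusted p = 0.0266) stayed called. The others did not (adjusted p = 0.0665 to 0.986), and *Tardbp* was at -0.0026. After the length and GC correction all 7 were called higher, with log2 fold changes from 0.22 (*Syncrip*) to 0.84 (*Ptbp1*). *Hnrnpm*, a regulator of alternative exons, was at 250, 249 and 244 FPKM in WT and at 373, 322 and 416 FPKM in cKO (log2 fold change 0.57, SE 0.11, adjusted p = 0.00334, but 0.506 with quantile normalization), and *Ptbp3* and *Matr3* had log2 fold changes of 0.56 and 0.55. *Ptbp1*, the polypyrimidine tract binding protein, was at 136, 138 and 132 FPKM in WT and at 240, 172 and 179 FPKM in cKO (0.52, SE 0.13, adjusted p = 0.0113). The annotated exons of *Hnrnpm* and *Tardbp* share sequence with those of the overlapping genes *March2* and *Masp2*, and how such fragments were divided is not stated.

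The lower genes included *Hnrnpa0*, *Hnrnpul2*, *Pcbp1*, *Pcbp3*, *Pcbp4*, *Cirbp* and *Khsrp*, each with a negative sign also with the same FPKM total and with quantile normalization. After the length and GC correction *Pcbp1* was at 0.01 and *Pcbp4* at -0.04, neither called (adjusted p = 0.909 and 0.828). *Hnrnpa0* (-0.75), *Hnrnpul2* (-0.36), *Pcbp3* (-0.46) and *Khsrp* (-0.63) kept the call there with smaller falls, and *Cirbp* fell further (-1.04). The call of *Pcbp1* was also lost without any 1 of the WT libraries (adjusted p = 0.0940 to 0.105). *Hnrnpa0*, an intronless relative of the A/B genes, was at 266, 269 and 265 FPKM in WT and at 116, 147 and 129 FPKM in cKO. All cKO values were far below the WT values, with a log2 fold change of -1.03 (SE 0.094, adjusted p = 0.000218, and 0.0352 with the WT libraries as 1 sample). *Khsrp*, which like hnRNP D promotes the decay of AU-rich mRNAs, was at 60.1, 62.9 and 60.1 FPKM in WT and at 25.7, 31.1 and 23.0 FPKM in cKO (-1.18, SE 0.11, adjusted p = 0.000204, and 0.0302 with WT as 1 sample). *Cirbp*, the cold-inducible RNA binding protein, had a log2 fold change of -0.84 (adjusted p = 0.00364). *Hnrnpa0* and *Khsrp* were the only genes of this list called with WT as 1 sample. *Hnrnpll* was at 43.7, 41.3 and 42.5 FPKM in WT and at 42.0, 47.0 and 45.4 FPKM in cKO (0.07, adjusted p = 0.367; -0.48 with the same FPKM total, adjusted p = 0.00430). The distance of cKO 2 seen in *Hnrnpk* and *Hnrnpl* was 0.5 or more in 7 of these 27 genes, among them *Ptbp2* (0.81) and *Hnrnpdl* (0.69).

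hnRNP proteins of the A/B type enter the nucleus on transportin and are methylated on arginine. Of 5 genes of these steps, *Prmt1*, the main asymmetric arginine methyltransferase, was at 74.7, 77.3 and 71.2 FPKM in WT and at 200, 110 and 172 FPKM in cKO (log2 fold change 1.06, SE 0.21, adjusted p = 0.00357). *Prmt5*, the main symmetric methyltransferase, was at 25.4, 25.6 and 24.9 FPKM in WT and at 64.7, 35.8 and 50.9 FPKM in cKO (0.93, SE 0.19, adjusted p = 0.00482). In both genes every cKO library was above every WT library and cKO 2 was the lowest of the cKO libraries, and with the same FPKM total *Prmt1* was at 0.50 (adjusted p = 0.0228) and *Prmt5* at 0.38 (adjusted p = 0.0608). *Carm1*, another arginine methyltransferase, was at 4.76, 4.92 and 4.71 FPKM in WT and at 1.70, 1.87 and 2.05 FPKM in cKO (-1.01, SE 0.079, adjusted p = 0.000146). Among importins, *Tnpo1* had a log2 fold change of 0.37 (adjusted p = 0.00295), which turned to -0.17 with the same FPKM total, and *Tnpo2* of -0.99 (adjusted p = 0.00184). After the length and GC correction the log2 fold changes were 1.02 (*Prmt1*), 1.00 (*Prmt5*), -0.53 (*Carm1*), 0.36 (*Tnpo1*) and -0.67 (*Tnpo2*). All 5 genes were called, 3 higher and 2 lower, where 65.5% of all genes were called, but with the WT libraries as 1 sample only *Carm1* (adjusted p = 0.0315), where 15.9% of all genes were.

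Transcripts known to be spliced under hnRNP control were measured only at the level of the gene, and FPKM per gene symbol holds nothing on their exons. *Ptprc* was at 386, 389 and 390 FPKM in WT and at 386, 449 and 421 FPKM in cKO, with a log2 fold change of 0.10 (adjusted p = 0.320) that turned to -0.46 with the same FPKM total and with quantile normalization. *Pkm*, the pyruvate kinase gene whose exon choice is set by hnRNP A1, A2/B1 and PTBP1, was at 220, 224 and 223 FPKM in WT and at 444, 245 and 416 FPKM in cKO (0.68, SE 0.22, adjusted p = 0.0291). As in *Prmt1* and *Prmt5*, cKO 2 was the cKO library nearest to WT, and the call of *Pkm* was lost without any 1 of the WT libraries, cKO 1 or cKO 3 (adjusted p = 0.0706 to 0.109). With the same FPKM total its log2 fold change was 0.12 (adjusted p = 0.532), with quantile normalization 0.17 (adjusted p = 0.394), and with no expression filter the adjusted p was 0.0605. *Traf3* and *Malt1*, genes of lymphocyte signalling, had log2 fold changes of -0.72 (adjusted p = 0.000971) and -0.35 (adjusted p = 0.0351). The call of *Malt1* was lost without any 1 of the WT libraries, cKO 1 or cKO 3 (adjusted p = 0.0843 to 0.110). It was also lost with quantile normalization (adjusted p = 0.0654) and with no expression filter (adjusted p = 0.0724). *Cd44* and *Fas* were not called (adjusted p = 0.863 and 0.0839), although *Cd44* was lower with the same FPKM total (-0.43, adjusted p = 0.0151) and *Fas* higher without cKO 1 (0.37, adjusted p = 0.00694). With WT as 1 sample, limma called 0 of these 6 genes, and *Traf3* had an unadjusted p under 0.05.

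The promoters of the hnRNP genes were read from RefSeq windows on GRCm38.p6, 250 bases before to 50 after each annotated start, of which 18 belonged to the 10 genes, all matched by symbol. The 3 windows shown belong to *Hnrnpc*, called higher, and to *Hnrnpd* and *Hnrnpl*, called lower. Their letters are in lower case, 5′ to 3′ on the strand of the gene, and capitals mark matches on either strand to CCAAT, to the GC box GGGCGG, to the ETS letters CCGGAAGT and to the E-box CACGTG. The windows are chr14:52103972-52104271 (minus strand) for *Hnrnpc*, chr5:99978889-99979188 (minus strand) for *Hnrnpd* and chr7:28810640-28810939 (plus strand) for *Hnrnpl*.
Hnrnpc promoter: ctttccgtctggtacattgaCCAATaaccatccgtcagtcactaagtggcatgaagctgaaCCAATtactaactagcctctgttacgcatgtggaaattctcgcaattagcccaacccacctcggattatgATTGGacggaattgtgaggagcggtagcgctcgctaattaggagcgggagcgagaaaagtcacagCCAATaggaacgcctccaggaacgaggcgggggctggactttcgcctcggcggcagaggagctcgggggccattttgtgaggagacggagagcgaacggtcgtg
Hnrnpd promoter: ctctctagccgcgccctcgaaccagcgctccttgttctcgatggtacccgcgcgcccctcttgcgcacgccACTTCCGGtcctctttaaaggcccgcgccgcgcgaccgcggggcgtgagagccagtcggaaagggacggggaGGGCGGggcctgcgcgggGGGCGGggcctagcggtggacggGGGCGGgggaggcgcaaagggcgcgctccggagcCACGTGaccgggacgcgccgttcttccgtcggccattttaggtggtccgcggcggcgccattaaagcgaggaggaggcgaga
Hnrnpl promoter: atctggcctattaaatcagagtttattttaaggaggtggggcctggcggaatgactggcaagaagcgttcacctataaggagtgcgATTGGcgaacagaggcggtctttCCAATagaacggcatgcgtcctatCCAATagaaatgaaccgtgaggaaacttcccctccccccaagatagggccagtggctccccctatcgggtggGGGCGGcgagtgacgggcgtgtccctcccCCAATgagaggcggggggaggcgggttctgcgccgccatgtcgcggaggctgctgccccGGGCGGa

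CCAAT was present in at least 1 window of 8 of the 10 genes, all but *Hnrnpd* and *Hnrnpu*, and in 12 of their 18 windows, against 37.4% of all 32851 windows. The GC box was present in 7 of the genes and in 13 of their 18 windows, against 35.7% of all windows. The window of *Hnrnpd* held 45 CpG, that of *Hnrnpc* 22 and that of *Hnrnpl* 21, where the median of all windows was 7. TATAAA, in 13.6% of all windows, was in none of the 18, nor were TTTGGCGC (0.514%) or the NRF1 motif (0.971%). CCGGAAGT was found for *Hnrnpd* and *Hnrnpf* (2 of the 18 windows, 3.89% of all windows) and CACGTG for *Hnrnpa3*, *Hnrnpd* and *Hnrnpf* (3 of 18, 7.15%). The E2F-type letters TTCCCGCC were found for *Hnrnpa2b1* and *Hnrnpf* (3 of 18, 2.19%). A gene with several windows has more chances of a match. Each motif was searched on both strands without regard to overlap, and a match is only a description of the letters.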

How the data were processed

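mRNA-seq libraries of sorted DP thymocytes (3 WT, 3 cKO, grouped by their labels) were made with a directional poly(A) kit. After trimming (fastx trimmer) and TopHat alignment to mm10, the authors deposited Cufflinks FPKM values, 1 per gene symbol and library. Versions of the trimmer, TopHat and Cufflinks and the gene annotation are not given in the sources used here. FPKM are not counts, so the DESeq2 test of the study was not used.

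FPKM were divided by median-of-ratios size factors and log2(FPKM + 1) was fitted with limma 3.58.1 (R 4.3.3, trend) over genes at 1 FPKM or more in at least 3 libraries, with Benjamini-Hochberg adjustment over 10326 genes. A fold change on this scale understates that of low genes. The fit was tested on simulated data. Ratios were tested by exact permutation (scipy 1.17.1). Depth came from steps of 1 fragment in low values at an assumed fragment length of 200, and only as an estimate. Copies were found with blastn 2.17.0 against GENCODE M21 transcripts (GRCm38, the assembly of mm10), to which 22112 of 23183 symbols matched by name and 639 by synonym.

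The members and lists were chosen with earlier results of these data known. Named genes were the 10 hnRNP genes, *Nsrp1*, the lists of transport, methylation and target genes, and from 27 other hnRNP genes *Hnrnpll*, *Ptbp1*, *Hnrnpm*, *Hnrnpa0* and the 3 called genes with the largest change in each direction; others of that list, and the gene copies and overlapping genes, were named after their values were seen. Alternatives were other scalings (no size factors, same FPKM total, quantile), a pseudocount of 0.1, no filter or a filter at 5 FPKM, a replicate block, no trend, WT as 1 sample, a correction for length and GC content by splines with 5 degrees of freedom on 10237 genes, and each library left out. Summing gene copies, as plain sums of FPKM without regard to length, was added after seeing the data. Of the 27 other hnRNP genes, 1 counts in the totals but is not reported here.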

Additional observations from a re-analysis of the deposited data

How the results depend on the processing

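The number of hnRNP genes called, 6 of 10, was 0 with WT as 1 sample and 4 to 8 under the other alternatives. With WT as 1 sample, limma called 0 of the 10 genes (0 higher, 0 lower; 2 higher and 1 lower at an unadjusted p under 0.05), 2 of the 27 others (0 higher, 2 lower; 2 higher and 6 lower unadjusted) and 1641 genes in all (739 higher, 902 lower). With the same FPKM total the calls were 0 higher and 4 lower of the 10, 0 higher and 19 lower of the 27 (unadjusted p under 0.05 also 0 higher in both lists), and 903 higher and 6182 lower in all. With quantile normalization they were 0 and 4 of the 10 and 2 and 13 of the 27. With no filter 3 of the 10 were called higher and 1 lower (43.5% of all genes called). With single libraries left out, 3 to 5 of the 10 were called higher and 1 to 4 lower, and 6 to 13 of the 27 lower, the highest counts of lower genes without cKO 2 (53.5% to 74.5% of all genes called). Same-numbered WT and cKO libraries did not deviate together (correlations of -0.02, 0.04 and 0.03). The WT libraries differed by only 1.49 to 1.58 relative to counting noise, so this check cannot show whether the numbers mark pairs. The main fit did not take them as pairs. A replicate block left 5 of the 10 genes called, without *Hnrnpa2b1* (adjusted p = 0.0666), and 62.6% of all genes.

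Signs turned with the same FPKM total for *Hnrnpa1* (-0.51), *Hnrnpa2b1* (-0.20), *Hnrnpu* (-0.47), *Hnrnph2* (-0.11), *Hnrnpll* (-0.48), *Syncrip* (-0.22), *Ptbp1* (-0.039), *Tardbp* (-0.30), *Matr3* (-0.0041), *Tnpo1* (-0.17), *Ptprc* (-0.46), *Cd44* (-0.43) and *Fas* (-0.30). They turned with quantile normalization for *Hnrnpa1* (-0.51), *Hnrnpa2b1* (-0.30), *Hnrnpf* (-0.10), *Hnrnpu* (-0.43), *Hnrnpll* (-0.085), *Tardbp* (-0.0026), *Ptprc* (-0.46) and *Fas* (-0.064), and with the length and GC correction for *Hnrnpa1* (-0.26), *Hnrnpa2b1* (-0.060), *Hnrnpll* (-0.060), *Pcbp1* (0.011) and *Fas* (-0.27). With single libraries left out, *Hnrnpa1* ranged from -0.15 to 0.38, *Hnrnph1* from -0.43 to 0.013, *Cd44* from -0.044 to 0.088, the log2 difference of *Hnrnpu* over *Hnrnpul1* from -0.12 to 0.27, that of *Ptbp1* over *Ptbp3* from -0.19 to 0.063, and the share of *Hnrnpa1* from -1.50 to 0.153 points. With the copies summed, the log2 difference of *Hnrnpa1* over *Hnrnpa2b1* was 0.28, and the shares changed by 2.47 (*Hnrnpa1*), -0.546 (*Hnrnpa2b1*), 5.94 (*Hnrnpa3*), 2.01 (*Hnrnpf*) and -1.27 (*Hnrnpu*) points. Taken of the summed FPKM of the 10 and the 27 other genes, they changed by 1.01 (*Hnrnpa3*), -0.291 (*Hnrnpd*), -1.06 (*Hnrnph1*), -1.34 (*Hnrnpl*) and -0.0976 (*Hnrnpu*) points. The cause of these changes was not tested. Over the log2 fold changes of the 10 genes under all alternatives, 12 turned in sign, with or without a change of call. Among the rest, 127 kept their side of the threshold, 24 lost the call and 7 gained it.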

Other observations

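Among the hnRNP relatives that were not called, *Hnrnpab*, a relative of hnRNP D, was at 341, 337 and 333 FPKM in WT and at 494, 310 and 467 FPKM in cKO, so that cKO 2 was the lowest and the other cKO libraries the highest of the 6. *Hnrnpdl* showed the opposite order, with 96.4, 98.2 and 96.3 FPKM in WT and 81.4, 136 and 87.3 FPKM in cKO. *Ptbp2*, the neuronal relative of *Ptbp1*, was at 22.0, 22.0 and 22.3 FPKM in WT and at 14.1, 25.2 and 13.8 FPKM in cKO, again with cKO 2 above and the other cKO libraries below the WT range. Over the tested genes with a mean of 20 FPKM or more, 216 had cKO 2 above the mean of cKO 1 and cKO 3 by 0.5 or more on the log2 scale and 352 had it below by as much.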
